A study of Mus musculus with 16 samples.

Results

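The genes described here are the classical MHC class I pathway and the immunoproteasome: the heavy chains H2-K1 and H2-D1, their light chain B2m, the peptide transporter and loading genes Tap1, Tap2 and Tapbp, the immunoproteasome subunits Psmb8, Psmb9 and Psmb10, and the class I transactivator Nlrc5. They are the 10 genes of a fixed list whose symbol equals the gene name in the scanner files, out of 24541 genes tested, and 13 of the 55681 probes on the array carry one of these names. All 10 were well above background on all 16 arrays through at least 1 probe, so each passed the filter on dim probes in every group.

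On day 28, colon that looked free of tumour was taken from 16 mice, all ApcMin/+ (heterozygous for a truncating allele of the tumour suppressor gene Apc), and each mouse was run on its own single-colour Agilent array. The 6 5-ASA mice drank DSS (dextran sulphate sodium, at 1.5% w/v), which injures the colonic epithelium, for 3 days and received 5-aminosalicylic acid, a drug that dampens inflammation of the colon. The 6 Control mice had the same DSS course and saline or plain water, and the 4 Sham mice, also ApcMin/+, drank water alone for 28 days. The labels differ on the route: the protocol has 5-ASA or saline given into the colorectum over 28 days, whereas by the sample descriptions 5-ASA mice drank the drug, and Control mice plain water, over the 25 days that followed DSS. The tissue is whole colon, and age and sex are not given in the sources used here. The study's title concerns 5-ASA, neutrophil activation and tumour burden.

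MHC class I molecules display peptides from inside the cell to CD8 T cells and are read by natural killer cells. The proteasome cuts proteins into peptides, and interferon exposure replaces its constitutive catalytic subunits Psmb5, Psmb6 and Psmb7 with Psmb8, Psmb9 and Psmb10. Tap1 and Tap2 carry the peptides into the endoplasmic reticulum, Tapbp (tapasin) bridges them to the heavy chain, and the loaded heavy chain leaves for the surface with B2m. Nlrc5 is a transactivator that raises class I, B2m, Tap1 and immunoproteasome genes through an enhanceosome on their promoters, and interferon gamma induces it.

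Promoter stretches are shown for the genes of the presenting complex and for Tap1 and Psmb9, whose starts face each other. RefSeq promoter windows (250 bases before to 50 after the annotated start, build GRCm38.p6) matched 8 of the 10 genes. H2-K1 has 2 annotated starts, 14 bases apart, and each stretch below ends before the start, for H2-K1 before the upstream one. Capitals mark matches, on either strand, to 4 listed motifs and 2 motifs added after the windows had been read. The listed ones are the core of an interferon-stimulated response element (in B2m, the first run of capitals), TTCNNNGAA (a gamma-activated site), CCAAT (the Y box) and TGACG (an X2 core). The added ones are the kB site of the class I enhancer A (the first run of capitals in H2-K1 and H2-D1) and GAANNGAAA, a response element core with a base less in its first part, and no matches of these motifs overlapped in the stretches shown.
H2-K1, chr17:34000349-34000468, minus strand: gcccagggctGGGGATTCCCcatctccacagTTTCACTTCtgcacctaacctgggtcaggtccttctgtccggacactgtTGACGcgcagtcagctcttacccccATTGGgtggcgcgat
H2-D1, chr17:35262913-35263055, plus strand: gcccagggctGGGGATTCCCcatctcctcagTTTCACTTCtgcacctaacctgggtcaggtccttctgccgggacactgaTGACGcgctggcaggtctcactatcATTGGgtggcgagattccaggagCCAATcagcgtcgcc
B2m, chr2:122147538-122147648, plus strand: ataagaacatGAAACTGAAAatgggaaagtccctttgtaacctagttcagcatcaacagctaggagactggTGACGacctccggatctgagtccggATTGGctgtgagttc
Tap1 and, read on the opposite strand, Psmb9, chr17:34187331-34187555, plus strand: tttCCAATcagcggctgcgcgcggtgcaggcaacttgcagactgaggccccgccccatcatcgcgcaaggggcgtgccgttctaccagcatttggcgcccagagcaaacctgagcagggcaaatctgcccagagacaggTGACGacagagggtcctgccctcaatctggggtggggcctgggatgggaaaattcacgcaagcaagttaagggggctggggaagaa

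In H2-K1, H2-D1 and B2m, TGACG was followed on the same strand by ATTGG, the Y box read from the other strand, with 20 bases between them, an arrangement (at most 40 bases between, also searched after the windows had been read) that 1.21% of 27025 promoter windows held. The kB site stood in H2-K1 and H2-D1 and in 0.104% of all windows, and the shorter GAANNGAAA stood in the same pair and in 7.56% of all windows. The response element core was found in B2m alone among the 8 genes and in 3.49% of all windows. CCAAT and TGACG on their own are common, in 37.9% and 21.0% of windows. TTCNNNGAA was found in Psmb8 alone among the 8 genes and in 8.47% of all windows. The Tap1 and Psmb9 starts lie on opposite strands with 225 bases between them, and this shared stretch holds 1 CCAAT and 1 TGACG. The Tapbp window held 2 CCAAT, and that of Psmb10 held 0 of these motifs. The windows of H2-D1 and of the downstream H2-K1 start were identical at 180 of 254 aligned bases. A match is a description of letters, no factor binding was measured, and a relation of these letters to the levels below was not tested.

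Levels are log2 processed signal minus the array's 75th percentile, so 0 is the array's 75th percentile itself. Levels of different probes are not compared as amounts of RNA, since probes differ in brightness. Probe positions are those of the files, in mm9. Of the 10 genes, 7 lie on chromosome 17, B2m lies on chromosome 2, and Psmb10 and Nlrc5 lie on chromosome 8. The probes of the most variable genes on chromosome 17 are shown as the sequences that were hybridised, at chr17:34330854-34330913 (plus strand) for Tap1, chr17:34337771-34337830 (plus strand) for Psmb8 and chr17:34319174-34319233 (minus strand) for Psmb9.
Tap1 probe: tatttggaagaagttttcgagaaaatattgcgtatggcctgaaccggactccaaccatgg
Psmb8 probe: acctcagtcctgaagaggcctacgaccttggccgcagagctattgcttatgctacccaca
Psmb9 probe: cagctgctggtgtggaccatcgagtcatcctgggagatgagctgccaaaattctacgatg

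Across the arrays, 53.0% to 65.2% of probes were well above background and no spot (0) was saturated. Each of the 2 slides held 3 5-ASA, 3 Control and 2 Sham arrays. The second row of arrays on each slide held all 5-ASA mice and Control 3 and 6, and the first row held the other Control mice and all Sham mice, so 5-ASA and Sham arrays shared no row. Over all genes, limma called 13 of 24541 (0.0530%) between Control and Sham, 0 between 5-ASA and Control, where 992 had an unadjusted p under 0.05, and 13 (0.0530%) between 5-ASA and Sham, at a Benjamini-Hochberg adjusted p of 0.05. The comparisons share groups and are not independent. The labels call the mice biological replicates, and the number of mice limits the precision.

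None of the 10 genes was called in any of the 3 comparisons (0 of 10 in each). At an unadjusted p under 0.05, 0 of 10 passed between Control and Sham, against 8.88% of all genes, 0 of 10 between 5-ASA and Control, against 4.04%, and 1 of 10 (Tapbp) between 5-ASA and Sham, against 10.9%. For 0 of 10 genes did all mice of one group lie above all mice of the other, against 3.33% of all genes between Control and Sham, 0.139% between 5-ASA and Control and 1.81% between 5-ASA and Sham. The 10 genes had a median log2 difference of -0.04 between 5-ASA and Control, -0.06 between 5-ASA and Sham and -0.05 between Control and Sham. Over all genes the medians of these comparisons were -0.00, 0.01 and 0.01. What did differ was the individual mouse: within every group, 1 mouse stood above the rest in nearly all of these genes.

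**Figure D1:**
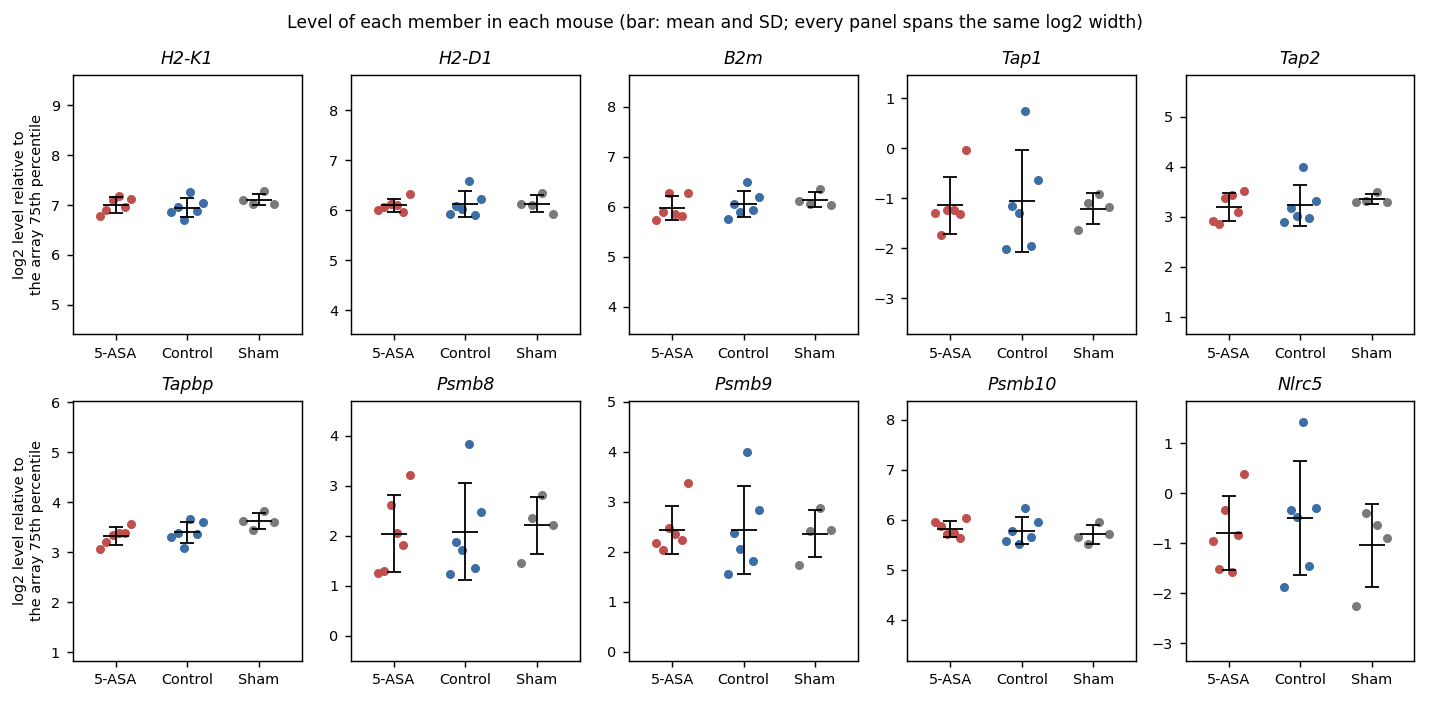
Level of each of the 10 genes (y axis, log2 signal minus its array's 75th percentile) in each mouse of the 5-ASA, Control and Sham groups, with the mean and SD as black bars and the same log2 height in every panel. Over the 16 mice, Tap1, Psmb8, Psmb9 and Nlrc5 span 2.45 to 3.67 log2 units, whereas H2-K1 spans 0.57.

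The class I heavy chains and B2m, which form the peptide-presenting complex, were bright and nearly level. H2-K1, a classical heavy chain, lay at 6.77 to 7.19 in 5-ASA mice (median 7.03) and at 6.71 to 7.26 in Control mice (median 6.92), and at 7.10, 7.03, 7.27 and 7.03 in Sham mice 1 to 4. All 3 groups overlapped. The differences were 0.06 for 5-ASA against Control (95% interval -0.15 to 0.27), -0.10 for 5-ASA against Sham (-0.33 to 0.13) and -0.16 for Control against Sham (-0.39 to 0.08). A second H2-K1 probe gave 0.07, -0.13 and -0.20 for the same comparisons.

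H2-D1, the other classical heavy chain of this list, averaged 6.10 ± 0.13 in 5-ASA mice, 6.12 ± 0.25 in Control mice and 6.13 ± 0.17 in Sham mice (SD, n = 6, 6 and 4). It differed by -0.02 between 5-ASA and Control, by -0.03 between 5-ASA and Sham and by -0.01 between Control and Sham, and the 95% intervals lay between -0.30 and 0.26. B2m, the light chain that every class I molecule needs, averaged 5.98 ± 0.23 in 5-ASA mice, 6.06 ± 0.26 in Control mice and 6.14 ± 0.15 in Sham mice (same n). Its difference was -0.08 between 5-ASA and Control (95% interval -0.36 to 0.20), -0.16 between 5-ASA and Sham (-0.48 to 0.15, a fold of 0.719 to 1.11) and -0.08 between Control and Sham (-0.40 to 0.23). Class I heavy chain genes are near-identical copies, and a probe for one may bind transcripts of others, so the single heavy chains are uncertain.

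The peptide-loading genes split. Tapbp had the smallest p of the 10 genes in each comparison. It lay at 3.08 to 3.58 in 5-ASA mice (median 3.36) and at 3.10 to 3.67 in Control mice (median 3.38), and at 3.63, 3.44, 3.84 and 3.60 in Sham mice 1 to 4. The lowest Sham value lay within the range of both DSS groups. Tapbp differed by -0.30 between 5-ASA and Sham (SE 0.12, 95% interval -0.56 to -0.04, limma unadjusted p = 0.0274, adjusted p = 0.402), by -0.22 between Control and Sham (SE 0.12, adjusted p = 0.588) and by -0.08 between 5-ASA and Control (adjusted p = 0.999). None passed the adjusted threshold.

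Tap2, which forms the peptide transporter with Tap1, lay at 2.85 to 3.51 in 5-ASA mice (median 3.23) and at 2.89 to 3.99 in Control mice (median 3.10), and at 3.29, 3.32, 3.50 and 3.30 in Sham mice. The 4 Sham mice lay within the range of each DSS group, whose SDs (0.28 and 0.40) were larger than that of Sham (0.10). Tap1, the partner of Tap2, lay at -1.72 to -0.04 in 5-ASA mice (median -1.27) and at -2.01 to 0.75 in Control mice (median -1.22), and at -1.64, -1.09, -0.91 and -1.17 in Sham mice. Control mice held both the highest and the lowest Tap1 level of the 16. The differences of Tap1 were -0.09 for 5-ASA against Control (95% interval -0.95 to 0.76), 0.06 for 5-ASA against Sham (-0.89 to 1.02) and 0.15 for Control against Sham (-0.80 to 1.11). As folds, the interval for Control against Sham runs from 0.574 to 2.16.

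Among the immunoproteasome subunits, Psmb8 and Psmb9 varied widely and Psmb10 did not. Psmb8, which takes the place of Psmb5, lay at 1.26 to 3.21 in 5-ASA mice (median 1.94) and at 1.23 to 3.85 in Control mice (median 1.79), and at 1.45, 2.36, 2.81 and 2.22 in Sham mice. Psmb9, which takes the place of Psmb6, lay at 2.04 to 3.37 in 5-ASA mice (median 2.29) and at 1.56 to 4.0 in Control mice (median 2.21), and at 1.73, 2.41, 2.87 and 2.43 in Sham mice. In both genes Control 4 and 5-ASA 6 were the 2 highest mice, and the other mice of the 3 groups overlapped. The group differences of Psmb8 ran from -0.17 to -0.04 and those of Psmb9 from 0.00 to 0.08, with adjusted p from 0.959 to 1.00 in limma.

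Psmb10, which takes the place of Psmb7, averaged 5.82 ± 0.16 in 5-ASA mice, 5.79 ± 0.27 in Control mice and 5.71 ± 0.18 in Sham mice (SD, n = 6, 6 and 4). Its differences were 0.04, 0.12 and 0.08 for 5-ASA against Control, 5-ASA against Sham and Control against Sham, and the 95% intervals lay between -0.23 and 0.41. A second Psmb9 probe was well above background in 2 mice of each group and passed the threshold in no comparison (differences of -0.12, 0.32 and 0.43 in the same order, smallest adjusted p = 0.825 in limma).

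Nlrc5 had the widest spread of the list. It lay at -1.58 to 0.38 in 5-ASA mice (median -0.89) and at -1.86 to 1.42 in Control mice (median -0.40), and at -2.25, -0.39, -0.63 and -0.89 in Sham mice. Control 4 was the highest of the 16 mice and Sham 1 the lowest, which is a 12.7-fold range. The differences were -0.30 for 5-ASA against Control (95% interval -1.38 to 0.77), 0.24 for 5-ASA against Sham (-0.96 to 1.44) and 0.54 for Control against Sham (-0.66 to 1.75), with adjusted p of 0.999, 0.950 and 0.785 in limma. Without Control 4 the difference between 5-ASA and Control was 0.08. A dimmer Nlrc5 probe was not well above background in any of the 6 5-ASA mice (0 of 6), and was so in 5 of 6 Control mice and 3 of 4 Sham mice. It passed the filter through Control and Sham arrays alone, which favours a lower 5-ASA level. On it 5-ASA lay at least 1.39-fold below Control (limma adjusted p = 0.996) and at least 1.11-fold below Sham (adjusted p = 0.752). Against Sham the main probe had the opposite sign (0.24). Both bounds concern group means and leave out the spread between mice. On the dimmer probe 5-ASA 1, at -4.60, lay above every Sham mouse (-5.19 to -4.80). In the row that holds all 5-ASA arrays, 53.0% to 57.7% of probes were well above background, against 59.8% to 65.2% in the row that holds all Sham arrays. With array row as a covariate, which rests on the Control mice since they alone lie in both rows, the main Nlrc5 probe differed by 0.06 between 5-ASA and Sham and by -0.42 between 5-ASA and Control.

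**Figure D2:**
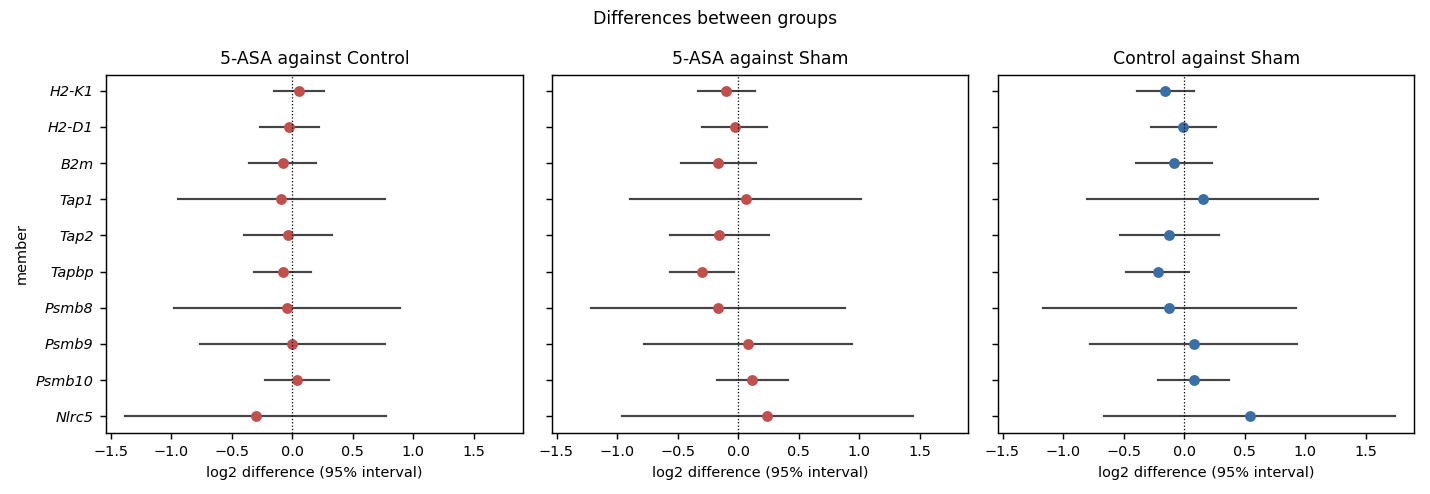
Log2 difference of each gene (points) with its 95% interval from limma (lines) for 5-ASA against Control, 5-ASA against Sham and Control against Sham. Every interval includes 0 except that of Tapbp for 5-ASA against Sham (-0.56 to -0.04), and the intervals of Tap1, Psmb8, Psmb9 and Nlrc5 are the widest.

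The spread between mice of one group set these genes into 2 tiers. The within-group SD was 0.93 for Nlrc5, 0.81 for Psmb8, 0.74 for Tap1 and 0.66 for Psmb9, which placed them at the 95.4th, 93.3rd, 91.6th and 89.3rd percentile of all genes, whose median SD was 0.25. It was 0.31 for Tap2, 0.23 for B2m, 0.21 for Psmb10, 0.19 for H2-D1 and for Tapbp, and 0.16 for H2-K1, the last at the 24.8th percentile. Over the 16 mice the range was 6.78-fold for Tap1, 6.12-fold for Psmb8 and 5.45-fold for Psmb9, against 1.69-fold for B2m and 1.48-fold for H2-K1. Without Control 4 the range was 6.20-fold for Nlrc5 in place of 12.7-fold, 3.92-fold for Tap1, 3.95-fold for Psmb8 and 3.51-fold for Psmb9, against 1.58-fold for Tap2, 1.55-fold for B2m and 1.48-fold for H2-K1. The wide tier thus holds the transactivator, 1 of the 2 transporter chains and 2 of the 3 immunoproteasome subunits, and the narrow tier holds the heavy chains, B2m, Tap2, Tapbp and Psmb10. The probes of the wide tier were also the dimmest of the list. Their Control means ran from -1.05 (Tap1) to 2.44 (Psmb9), against 3.23 (Tap2) to 6.95 (H2-K1) in the narrow tier. The percentiles are over all genes at any brightness, and the part of probe brightness in these tiers was not tested.

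The same mice were high across the list. Control 4 was the highest Control mouse in 10 of 10 genes and the highest of all 16 mice in 8, the exceptions being H2-K1 and Tapbp, in which Sham 3 was highest. 5-ASA 6 was the highest 5-ASA mouse in 9 of 10 genes (5-ASA 4 in H2-K1), and Sham 3 was the highest Sham mouse in 9 of 10 (Sham 2 in Nlrc5). The mean deviation of the 10 genes from their 16-mouse means was 0.55 in 5-ASA 6, 1.00 in Control 4 and 0.31 in Sham 3. The lowest mice of the groups were 5-ASA 2 at -0.34, Control 1 at -0.50 and Sham 1 at -0.31.

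By group this mean deviation was -0.03 ± 0.32 in 5-ASA mice, 0.02 ± 0.55 in Control mice and 0.01 ± 0.25 in Sham mice (SD, n = 6, 6 and 4), so the group means lay closer together than the mice within any group. The 4 highest mice (Control 4, 5-ASA 6, Sham 3 and Control 6) all lay on slide 2, and the mean deviation was -0.18 over the 8 mice of slide 1 and 0.18 over the 8 of slide 2. Slide 1 and slide 2 hold the same number of mice of each group, and within either slide 0 of 10 genes was called. With so few mice, 0 to 4 of all genes were called per comparison within a slide. The 0 of 10 therefore says little about the shift between slides. Without Control 4 and 5-ASA 6, a choice made after their values were seen, 0 of 10 genes was called as well, and the median difference was 0.05 between 5-ASA and Control, -0.14 between 5-ASA and Sham and -0.21 between Control and Sham. The Nlrc5 difference for Control against Sham was then 0.16 in place of 0.54, and that of Tap1 turned to -0.21, so both values rested on Control 4. The Nlrc5 value rested on Sham 1, its lowest mouse, as well, being 0.14 without that mouse alone.

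**Figure D3:**
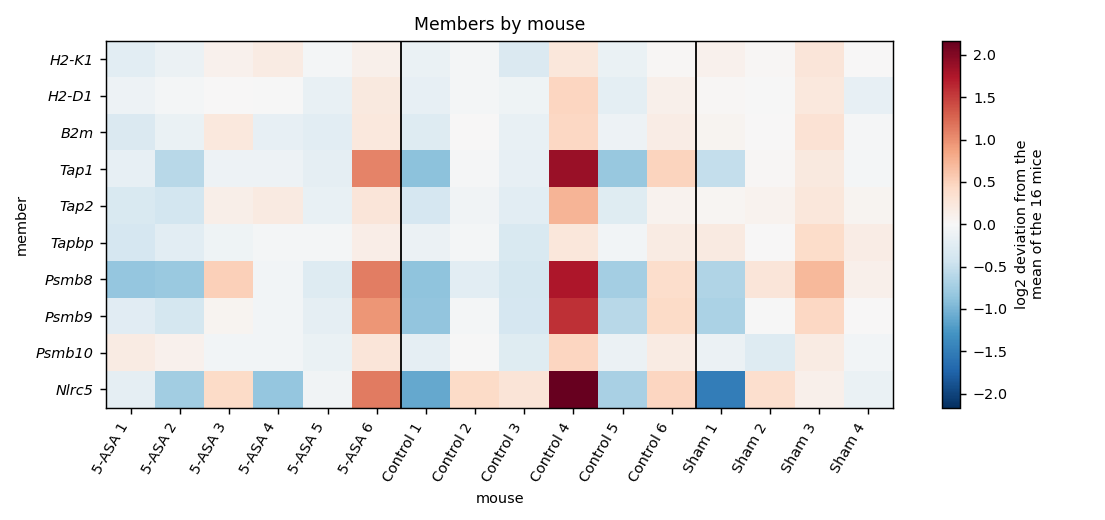
Deviation of each gene in each mouse from its mean over the 16 mice, on the log2 scale (colour), with mice in columns grouped as 5-ASA, Control and Sham. The columns of Control 4 and 5-ASA 6 are red in all 10 rows, and Nlrc5 in Control 4 is the strongest cell of the map.

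The genes moved together from mouse to mouse. Over the 45 pairs of the 10 genes, Pearson's r across the 16 mice ran from 0.287 to 0.978 with a median of 0.772, and with group means removed the median was 0.796. All genes share the array of each mouse, including its scaling, and these values are descriptions without a test. By r over the 16 mice the closest pair was Tap1 and Psmb9 (r = 0.978, rho = 0.941), whose starts share the stretch shown above. Psmb8 and Psmb9 followed (r = 0.949, rho = 0.950). By rho, Psmb8 and Psmb9 came first, and Tap2 and Psmb8 (rho = 0.944) also came before Tap1 and Psmb9. The part of the shared stretch in these values was not tested. Tap1 and Psmb9 stayed together within slide 1 (r = 0.898, 8 mice), within slide 2 (r = 0.991, 8 mice) and without Control 4 and 5-ASA 6 (r = 0.931). B2m and Tap2 were closer within slide 1 (r = 0.906), and Psmb8 and Psmb9 within slide 2 (r = 0.992). The loosest pair was Tapbp and Nlrc5 (r = 0.287).

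Nlrc5 tracked Tap1 (r = 0.900, rho = 0.803), Psmb9 (r = 0.896, rho = 0.838) and Psmb8 (r = 0.851, rho = 0.791) most closely of the list. Among 24475 genes outside Nlrc5 that had a value on every array, these 3 ranked 18, 19 and 41 by r. H2-D1 (r = 0.705), Tap2 (0.678), B2m (0.673) and Psmb10 (0.601) followed at ranks 448 to 1109, and H2-K1 (0.352) and Tapbp (0.287) came at ranks 3970 and 5029. Without the 2 mice farthest from the median Nlrc5 level, Control 4 and Sham 1, r was 0.852 for Tap1, 0.797 for Psmb9 and 0.762 for Psmb8.

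The relation was not alike on both slides for the narrow tier. Within slide 1, r with Nlrc5 was 0.870 for Tap1, 0.888 for Psmb9 and 0.721 for Psmb8. It was 0.188 for H2-D1, 0.291 for B2m, 0.336 for Tap2, -0.08 for H2-K1, -0.09 for Psmb10 and -0.32 for Tapbp. Within slide 2, which holds the 4 highest mice, all 9 other genes had an r with Nlrc5 from 0.494 (H2-K1) to 0.959 (Tap1). Over the 45 pairs the median r was 0.508 within slide 1 and 0.882 within slide 2. For the narrow tier the value depended on which mice were left out. Without Control 4 and 5-ASA 6, r with Nlrc5 was 0.300 for H2-D1, 0.301 for Tap2, 0.412 for B2m, 0.148 for Psmb10, 0.01 for H2-K1 and 0.03 for Tapbp. Without Control 4 and Sham 1, the mouse with the lowest Nlrc5, it was 0.622 for H2-D1, 0.583 for Tap2, 0.695 for B2m, 0.328 for Psmb10, 0.274 for H2-K1 and 0.344 for Tapbp. The closer relation to Tap1, Psmb9 and Psmb8 was weaker without Control 4 and 5-ASA 6 too, with an r of 0.760, 0.748 and 0.665.

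**Figure D4:**
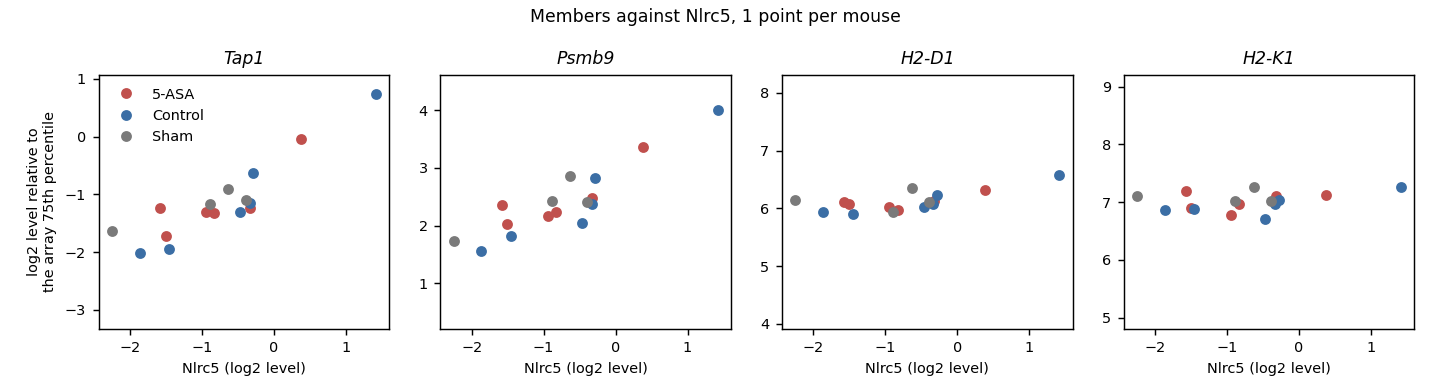
Level of Tap1, Psmb9, H2-D1 and H2-K1 (y axes, log2, equal heights) against that of Nlrc5 (x axis, log2) in each of the 16 mice, coloured by group. Tap1 and Psmb9 climb along Nlrc5 (r = 0.900 and 0.896), H2-D1 climbs little in log2 units and H2-K1 stays nearly flat (r = 0.352).

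Outside the list, the genes whose level was most like the mean deviation of the 10 genes over the 16 mice were Il18bp, which encodes a secreted binding protein of interleukin 18 (r = 0.955), the guanylate-binding GTPases Gbp7 (0.948), Gbp3 (0.920) and Gbp2b (0.911), the class I genes H2-Q7 (0.925) and H2-Q5 (0.900), the lectin-like receptor gene Klra2 (0.914) and 1 transcript without a gene name (0.913). By Spearman's rho Il18bp was first of 24466 genes (rho = 0.935), and with group means removed it was first too (r = 0.976). The others lay between the 3rd and the 29th place with group means removed, and by rho H2-Q5 (place 6), the unnamed transcript (7.5) and Gbp7 (9.5) came before Klra2 (41.5), Gbp3 (61), H2-Q7 (77.5) and Gbp2b (92). Without Control 4 and 5-ASA 6 their r was 0.774 to 0.918. Il18bp differed by -0.40 between 5-ASA and Control, by -0.25 between 5-ASA and Sham and by 0.15 between Control and Sham, beside SDs of 0.42 in 5-ASA, 0.99 in Control and 0.38 in Sham mice.

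The balance between immunoproteasome and constitutive subunits was followed as the log2 difference of the 2 signals within an array, centred on the mean of the 16 mice because 2 probes have no common scale. Psmb8 minus Psmb5 ran from -1.24 to 0.94 in 5-ASA mice and from -0.84 to 1.71 in Control mice, and was -0.51, 0.47, 0.78 and 0.21 in Sham mice 1 to 4. Psmb9 minus Psmb6 ran from -0.60 to 0.86 in 5-ASA mice and from -0.82 to 1.44 in Control mice, and was -0.60, 0.17, 0.69 and 0.12 in Sham mice. Control 4 was the highest mouse for both, and the groups overlapped throughout.

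Psmb10 minus Psmb7 ran from -0.26 to 0.18 in 5-ASA mice and from -0.20 to 0.10 in Control mice, and was 0.03, -0.10, 0.37 and 0.15 in Sham mice. It covered 0.63 log2 units over the 16 mice, against 2.95 for Psmb8 minus Psmb5 and 2.26 for Psmb9 minus Psmb6. The constitutive subunits themselves varied little within groups, with SDs of 0.17, 0.12 and 0.06 for Psmb5, 0.16, 0.07 and 0.07 for Psmb6, and 0.24, 0.19 and 0.03 for Psmb7 in 5-ASA, Control and Sham mice. The 3 group means of each balance differed by 0.02 to 0.40, with Sham highest each time, and these differences were not tested. Psmb9 and Psmb10 themselves had their lowest means in Sham (2.36 and 5.71), as had Psmb6 and Psmb7 (5.46 and 2.73). In these 2 balances the Sham lead thus came from lower constitutive subunits. For Psmb9 minus Psmb6 it turned over in 3 of 20 alternative settings against Control and in 1 of 20 against 5-ASA.

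**Figure D5:**
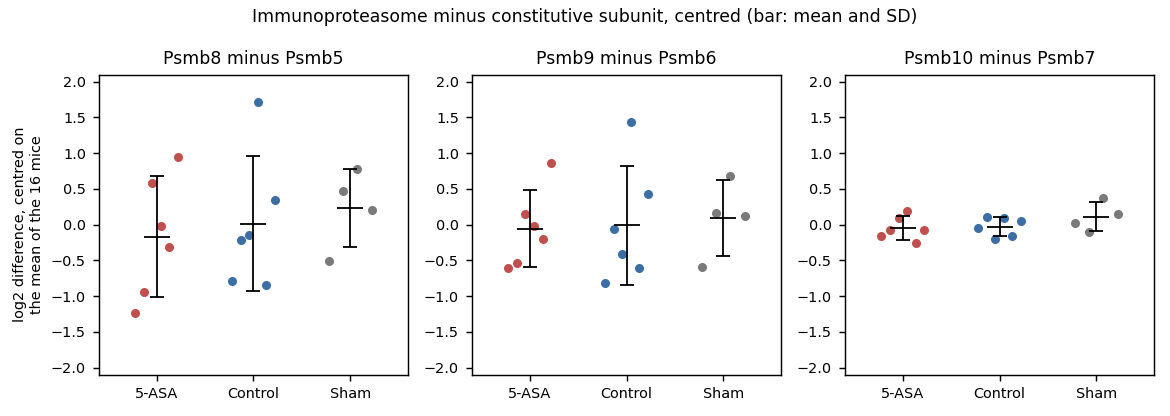
Log2 difference between each immunoproteasome subunit and the constitutive subunit whose place it takes (y axis), centred on the mean of the 16 mice, in each 5-ASA, Control and Sham mouse, with the mean and SD as bars. Control 4 lies at 1.71 for Psmb8 minus Psmb5 and 1.44 for Psmb9 minus Psmb6, whereas Psmb10 minus Psmb7 stays between -0.26 and 0.37 in all mice.

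The other genes of the pathway were not called either. The 3 constitutive catalytic subunits had higher means in both DSS groups: Psmb6 differed by 0.23 between 5-ASA and Sham (SE 0.08, limma adjusted p = 0.348) and by 0.18 between Control and Sham (adjusted p = 0.559), Psmb5 by 0.23 and 0.10, and Psmb7 by 0.28 and 0.22. Of 16 other core and assembly genes of the proteasome, 0 were called, 16 had a higher mean in 5-ASA than in Sham (median difference 0.19) and 16 in Control than in Sham (median 0.17), against 51.4% and 51.6% of all genes. Psmb3, a core subunit, differed by 0.30 between 5-ASA and Sham (adjusted p = 0.347), and Pomp, the assembly chaperone, by 0.25 (adjusted p = 0.437). Between 5-ASA and Control the median of these 16 genes was 0.02. Psme1, a subunit of the PA28 activator that interferon gamma induces, differed by 0.12 between 5-ASA and Sham and by 0.16 between Control and Sham (adjusted p = 0.890 and 0.791), and no probe carried the name Psme2, the other subunit.

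Of 16 tested other class I heavy chains, 0 were called, and 13 had a lower mean in 5-ASA than in Sham (median -0.15), 12 in Control than in Sham (median -0.13) and 9 in 5-ASA than in Control (median -0.01). Over all genes, the mean was higher in 51.4%, 51.6% and 49.6% for these comparisons, in the same order. Since heavy chain probes may bind each other's transcripts, these counts may not be of separate transcripts. H2-T23, the mouse Qa-1 heavy chain, differed by -0.23 between 5-ASA and Sham (SE 0.11, limma adjusted p = 0.460) and by -0.24 between Control and Sham (adjusted p = 0.559), and H2-Q1 differed by -0.59 and -0.54 (adjusted p = 0.506 and 0.595). H2-M9, which had the smallest p between 5-ASA and Control, was not well above background in any 5-ASA mouse (0 of 6) and was so in 4 of 6 Control mice, which puts 5-ASA at least 2.11-fold below Control (limma adjusted p = 0.999). That bound rests on Control 4 and Control 5, at -1.82 and -1.51, since the other 4 Control mice averaged -5.15, below the ceiling of -5.06 that applies to 5-ASA. H2-M9 also passed the filter on dim probes through Control and Sham arrays alone, which favours a lower 5-ASA level. Of 7 class I-like molecules, 0 were called. Fcgrt, the neonatal Fc receptor heavy chain that also pairs with B2m, differed by -0.36 between 5-ASA and Sham and by -0.41 between Control and Sham (adjusted p = 0.539 and 0.561). Azgp1 and Procr came first by p between 5-ASA and Control, at 0.41 and -0.19.

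Of 9 chaperone and peptide-trimming genes, 0 were called, and 8 had a higher mean in 5-ASA than in Sham (median 0.15) and 8 in Control than in Sham (median 0.14), against 51.4% and 51.6% of all genes. Pdia3, the thiol oxidoreductase of the loading complex, differed by 0.36 between 5-ASA and Sham (SE 0.12, limma unadjusted p = 0.00924, adjusted p = 0.347) and Hspa5, the chaperone BiP, by 0.49 (SE 0.20, adjusted p = 0.405). Between Control and Sham, Canx (calnexin) differed by 0.21 and Hspa5 by 0.35. Calr (calreticulin) and Pdia3 came first between 5-ASA and Control, at 0.20 and 0.18.

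Upstream of the list, Ifng, the ligand that induces Nlrc5, was dim, being well above background in 3 of 6 5-ASA mice, 4 of 6 Control mice and 1 of 4 Sham mice. It averaged -4.77 ± 1.39 in 5-ASA mice, -4.26 ± 1.40 in Control mice and -6.06 ± 0.39 in Sham mice (SD, n = 6, 6 and 4), with most Sham values at background, and it was not called in any comparison. Ifng differed by 1.79 between Control and Sham (SE 0.75, limma unadjusted p = 0.0295, adjusted p = 0.559). It differed by 1.29 between 5-ASA and Sham and by -0.50 between 5-ASA and Control. All Control values (-5.50 to -1.89) lay above all Sham values (-6.41 to -5.61), as in 3.33% of all genes. The nearest values, -5.50 in Control 1 and -5.61 in Sham 2, differed little. Ifng passed the filter mostly through the DSS groups, where its mean is higher. With most Sham values at background, these sizes and the lack of overlap are uncertain. Control 4 had the highest Ifng signal of all mice, -1.89, and also the highest mean deviation of the list's genes. The next highest Ifng signal, -2.75, was in 5-ASA 1, where that mean deviation was -0.26. In 5-ASA 6 Ifng was at -3.51 and the mean deviation at 0.55, and in Sham 3 they were at -5.84 and 0.31. A relation of Ifng to the list over the mice was not tested. Irf1, an interferon-induced factor that acts on class I promoters, differed by 0.14, 0.05 and -0.08 for 5-ASA against Control, 5-ASA against Sham and Control against Sham. Of 18 transcription factors of class I genes, 0 were called. Irf2 differed by -0.37 between Control and Sham (adjusted p = 0.559), Ciita, the class II counterpart of Nlrc5, by -0.90 between 5-ASA and Sham (adjusted p = 0.454), Rfxank by 0.33 and Creb1 by -0.20 between 5-ASA and Control (adjusted p = 0.999 each). Of 12 tested interferon ligands, receptors and kinases, 0 were called in any comparison, and of the 6 tested class I receptors of T and NK cells 0 were called.

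Bulk colon mixes epithelium, muscle and leukocytes, and a lower level of a transcript may mean fewer cells of a type or less RNA per cell, which cannot be told apart here. The tissue carried strong epithelial markers, with a summed level of 10.5 to 10.8 in 5-ASA mice, 10.5 to 10.7 in Control mice and 10.4 to 10.6 in Sham mice. The summed level of the 5 leukocyte markers lay at 3.53 to 4.29 in 5-ASA mice, 3.06 to 6.33 in Control mice and 2.98 to 5.89 in Sham mice. 5-ASA 6, Control 4 and Sham 2 were highest, so that in the DSS groups the mouse with the highest class I and immunoproteasome genes also had the most leukocyte marker signal. Sham 2, with 5.89, had a mean deviation of the 10 genes of 0.05, and Sham 1, with 2.98, had -0.31.

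Over the 16 mice the mean deviation of the 10 genes had an r of 0.739 with the summed leukocyte markers (rho = 0.735, and r = 0.699 without Control 4 and 5-ASA 6), 0.740 with dendritic cell markers (5 of 6 genes tested), 0.719 with macrophage and monocyte markers (9 of 9), 0.635 with B cell markers (9 of 9) and 0.566 with T and NK cell markers (11 of 13). It was -0.66 with smooth muscle markers (6 of 6), -0.61 with endothelial (6 of 6), -0.25 with fibroblast (6 of 6) and -0.12 with epithelial markers (10 of 10). For neutrophil markers (6 of 8 tested) it was -0.07. These values depend on how a list is summed up: with the mean deviation of each list in place of its summed level, r was 0.744 for leukocyte, 0.832 for macrophage and monocyte, 0.802 for T and NK cell, 0.634 for B cell, 0.588 for neutrophil and 0.498 for dendritic cell markers, and -0.65 for smooth muscle, -0.35 for epithelial, -0.32 for fibroblast and -0.28 for endothelial markers. The order of the leukocyte types thus differed between the measures. With mean deviations, r was 0.659 within slide 1 and 0.755 within slide 2 for leukocyte markers, and 0.627 and 0.843 for macrophage and monocyte markers. The single genes of the list differed in this. With summed levels, their r ran from 0.38 to 0.74 for leukocyte and from 0.25 to 0.65 for B cell markers. It ran from -0.33 to 0.46 for epithelial and from -0.52 to 0.36 for fibroblast markers. Xcr1, Ngp and Cxcr2 were well above background on 0 arrays, Ncr1 on 1 and Klrb1c on 2. B cell markers had lower means in 5-ASA than in Sham mice for 9 of 9 genes (median -1.96, smallest limma adjusted p = 0.347), with summed levels of 1.17 to 2.06 in 5-ASA mice, 1.23 to 5.51 in Control mice and 1.04 to 5.30 in Sham mice. Over all genes, 51.4% had a higher mean in 5-ASA than in Sham. Macrophage and monocyte markers summed to 6.24 to 6.59 in 5-ASA mice, 6.22 to 6.71 in Control mice and 6.18 to 6.75 in Sham mice. Smooth muscle markers summed to 9.03 to 9.52 in 5-ASA mice, 7.94 to 9.78 in Control mice and 8.82 to 9.80 in Sham mice. Diarrhea scores on day 28 were 0 to 0.5 in 5-ASA mice, 0.5 to 1.5 in Control mice and 0 to 0.5 in Sham mice, with 1 in Control 4. The part of these cells in the levels of the 10 genes was not tested.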

How the data were processed

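The 16 scanner files, 1 per mouse, hold spot intensity in 1 colour, from which Feature Extraction 10.10.1.1 had subtracted the background without scaling arrays to each other, per the file headers. The deposited log2 table of 55821 probes, which served as an alternative, matches log2 intensity shifted to the 75th percentile and centred on each probe's Sham median (r 0.992 to 0.998 per array), with scale and centring inferred from its values.

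Intensity was put on the log2 scale and the 75th percentile of its array subtracted, leaving out control and outlying spots and averaging spots of a probe. Names came from the files, updated through RefSeq (GRCm38.p6) for 27656 of 55681 probes by accession. A probe stayed in if 4 or more of the 16 arrays showed it well above background (35079 did), and the kept probe with the highest mean stood for a gene. limma 3.58.1 in R 4.3.3 fitted 1 model of the 3 groups without covariates, adjusted by Benjamini-Hochberg over 24541 genes. An "at least" fold compares the mean of the brighter group with a ceiling for the dim one, which is the larger, on each array, of the probe's own signal and the lowest signal that any detected probe had. The fit was tested on simulated data.

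The members and gene lists were chosen with earlier results of these data known. Named genes are all 10 members, Psmb5, Psmb6, Psmb7, Psme1, Psme2, Irf1, Ifng, every called gene of the other pathway lists or, with none, the 2 with the smallest p per list and comparison, of which the text gives a part (1 gene is not reported here), and the 8 genes most like the members' mean by Pearson's r. Same-numbered mice of different groups had a median r of 0.133 between their deviations (8 of 14 pairs over 0.1), against -0.06 for other numbers (22 of 70 over 0.1). Same-numbered mice also shared a slide, except Sham 3 with Control 3 (r = -0.21) and with 5-ASA 3 (r = -0.20). Number and slide therefore cannot be told apart in these values, which do not test a pairing. The labels do not say that numbers pair mice, and numbers were not used as pairs in the main fit.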

Additional observations from a re-analysis of the deposited data

Results flagged for a closer look

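In 3 of 30 groups of one gene and one treatment, 1 mouse lay farther from the rest than Dixon's 95% critical value allows, and chance flags about 1 in 20 groups. Tap1 was -0.0428 in 5-ASA 6, where the next 5-ASA mouse was at -1.23. Psmb9 was 3.37 in the same mouse, with the next 5-ASA mouse at 2.47. Tap2 was 3.50 in Sham 3, with the next Sham mouse at 3.32, a gap that is large only against the narrow range of that group. Control 4, the highest mouse in most of the genes, was not among them.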

How the results depend on the processing

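Under 31 alternative settings, 16 of them leaving out 1 mouse, 0 of 930 member differences were called, and the smallest adjusted p was 0.170 (Tapbp, 5-ASA against Sham, with no filter on dim probes). Signs were less steady, with 74 changes in all, 9 of them without Control 4 and 8 within slide 1, and 8 of the 30 differences kept their sign in every setting: Tapbp in all 3 comparisons, H2-K1 for Control against Sham and 5-ASA against Control, B2m and Tap2 for 5-ASA against Sham, and Nlrc5 for Control against Sham. With the mouse number as a replicate block 0 of 10 genes were called in each comparison, and the median difference was -0.04 between 5-ASA and Control. The median of the members ran from -0.18 to 0.12 between 5-ASA and Control, -0.15 to 0.04 between 5-ASA and Sham and -0.21 to 0.08 between Control and Sham. Counts over all genes depended on the filter: with none, 2937 genes were called between 5-ASA and Control and 3271 between 5-ASA and Sham, against 0 and 13, and with only probes above background on all 16 arrays 0 and 0 (and 0 against 13 between Control and Sham). Within slides 1 and 2 the calls were 2 and 4 for 5-ASA against Sham and 4 and 1 for Control against Sham. With array row as a covariate, 7 were called between 5-ASA and Control and 3 between 5-ASA and Sham. Without the outer 12 spot rows 0 were called against Sham in either group, and without 5-ASA 4 there were 22 for 5-ASA against Sham. The causes were not tested. With 4 to 6 mice a group, the standard errors of 0.36 to 0.56 in Tap1, Psmb8, Psmb9 and Nlrc5 leave intervals about 1 log2 unit wide on each side.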
